A study of Oryza sativa Indica Group with 24 samples.

Results

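Grain of the high-amylose rice RD57 was set against grain of the waxy rice RD6 at 14 days post-anthesis (DPA), the stage at which the study places active grain filling. The samples were chosen by their labelled cultivar and DPA alone, which gave 3 RD57 and 3 RD6 libraries, 6 of the 24 in the series. Both are indica cultivars of Oryza sativa. The study describes RD6 as carrying a mutated GBSSI gene, the waxy allele, and names no transgene or treatment in either cultivar. The plants stood in pots in one net house under natural light, and superior grains from apical primary branches of the tagged main-stem panicle were frozen. The tissue is labelled endosperm, while the methods describe RNA from grains, so embryo and outer layers may be included. The cultivars differ across the whole genome, so no difference below can be tied to a single allele. The series also sampled 7, 21 and 28 DPA, which are used here only to place the 14 DPA values.

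Cereal endosperm stores starch and protein. ADP-glucose pyrophosphorylase makes the ADP-glucose from which starch synthases build glucan chains, and granule-bound starch synthase I (GBSSI), the product of the Waxy locus, makes amylose. Waxy rice grain holds little amylose, whereas high-amylose rice has an active GBSSI. Seed storage proteins and small seed proteins of the rice allergen family are made in the same tissue and are among the most abundant products of the filling grain.

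The deposited values are FPKM (sequenced fragments relative to transcript length and to the fragments of the library) of 26362 genes, which carry assembly identifiers (XLOC) and no names. FPKM of a library need not add up to a fixed total. The number of reads behind a value is not known from the table, so precision was judged from the 3 replicates. No value lay between 0 and 0.5 FPKM, and within a cultivar a gene was either above 0 in all 3 libraries or listed at 0 in all 3. Pearson's r of log2(FPKM + 0.5) over the 19402 genes above 0 in all 6 libraries was 0.953 to 0.973 between RD57 libraries, 0.973 to 0.976 between RD6 libraries and 0.92 to 0.941 between cultivars. No library stood apart from its group. Where a heat map of the study prints a name beside an identifier, that name is used. These labels were read from a picture by eye, so any digit read wrongly would attach the name to the wrong gene.

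At 14 DPA the cultivars shared most of their expressed genes, and most shared genes were close in level. Of the 26362 genes, 19402 were above 0 in all 6 libraries, 1969 in RD57 only and 1827 in RD6 only, and 3164 were listed at 0 in all 6. Among the 19402 shared genes, 17771 (91.6%) had a Log2FC (RD57 over RD6, on the log2(FPKM + 0.5) scale) between -1 and 1. The median Log2FC was 0.03 and the 5th and 95th percentiles were -0.83 and 1.01.

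Genes were called DEGs at an adjusted p of at most 0.05 (limma, Benjamini-Hochberg over all 26362 genes) with an absolute Log2FC of at least 2. There were 1881 DEGs, 7.14% of the genes tested, of which 998 (3.79%) were upregulated and 883 (3.35%) were downregulated in RD57. Only 247 of these were above 0 in all 6 libraries, 1.27% of the shared genes, with 132 upregulated and 115 downregulated. The balance of directions depended on the scaling, at 147 upregulated and 149 downregulated under quantile normalization and 109 and 123 after rescaling without the 100 most abundant genes. The other 1634 DEGs were listed at 0 in 1 cultivar, and their call rests on the value added before taking logs. That number was 3796 with 0.1 added and 840 with 1 added. By adjusted p alone, 3634 of the shared genes (18.7%) differed, 2020 upward and 1614 downward in RD57. The 3 RD57 values lay entirely above or below the 3 RD6 values for 5700 shared genes (29.4%), and this held for 240 of the 247 shared DEGs.

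**Figure D1:**
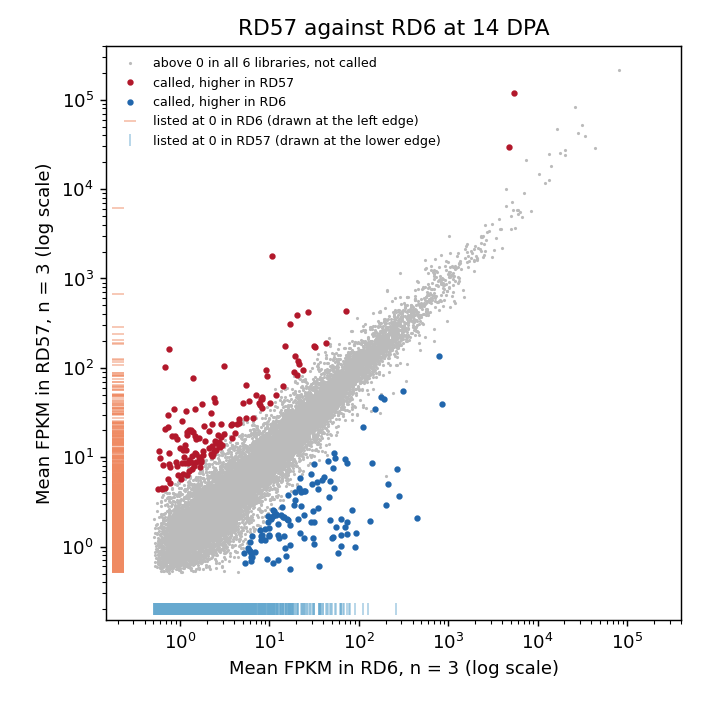
Mean FPKM in RD57 against mean FPKM in RD6 at 14 DPA for every gene above 0 in at least 1 cultivar (n = 3 each, log axes). Red points are the 132 shared DEGs upregulated and blue points the 115 downregulated in RD57, and the dashes along the left and lower edges are the 1969 and 1827 genes listed at 0 in RD6 and in RD57.

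The shared DEGs had larger values than the typical shared gene, which the call itself in part requires. The larger of their 2 cultivar means had a median of 19.5 FPKM, against 9.59 FPKM over all shared genes. A shared gene can pass the fold threshold only if its higher cultivar lies well above the lowest listed values. The lowest such mean among shared DEGs was 4.39 FPKM, while the lower quartile of all shared genes was 3.47 FPKM. Of 1634 shared genes with a mean of at least 100 FPKM in either cultivar, 31 (1.9%) were DEGs, beside 1.27% of all shared genes, 17 upregulated and 14 downregulated in RD57. The set of all shared genes includes genes too low to be called, and the larger mean is the side that makes a gene a DEG. Neither comparison therefore tests whether abundant genes differ more often.

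Transcripts of RD57 grain were concentrated in fewer genes. The 20 most abundant genes of each cultivar took 49.07%, 50.02% and 50.41% of summed FPKM in the RD57 libraries and 35.99%, 32.56% and 33.42% in the RD6 libraries. All 3 RD57 shares lay above all 3 RD6 shares. The means were 49.83% ± 0.689 and 33.99% ± 1.78 (SD, n = 3), a difference of 15.8 percentage points. The exact two-sided permutation p was 0.1, the smallest that 3 against 3 libraries can give. The same order held at every ranking depth computed. The single most abundant gene took 12.5% ± 0.843 in RD57 and 6.59% ± 0.432 in RD6, the top 100 genes took 62.2% ± 0.206 and 50.1% ± 1.55, and the top 500 took 74.5% ± 0.385 and 66.4% ± 1.07 (SD, n = 3, exact p of 0.1 for each). In other words, 20 to 22 genes made up 50% of summed FPKM in an RD57 library, and 82, 114 and 100 genes were needed in the RD6 libraries. The RD57 replicate 3 value of the first-ranked gene, XLOC_000359, equals the mean of the other 2 replicates and may be filled. It enters the shares and sums of that library, so their SD and exact p may rest partly on a value not measured. Without RD57 replicate 3, the difference in top-20 share was 15.6 percentage points.

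**Figure D2:**
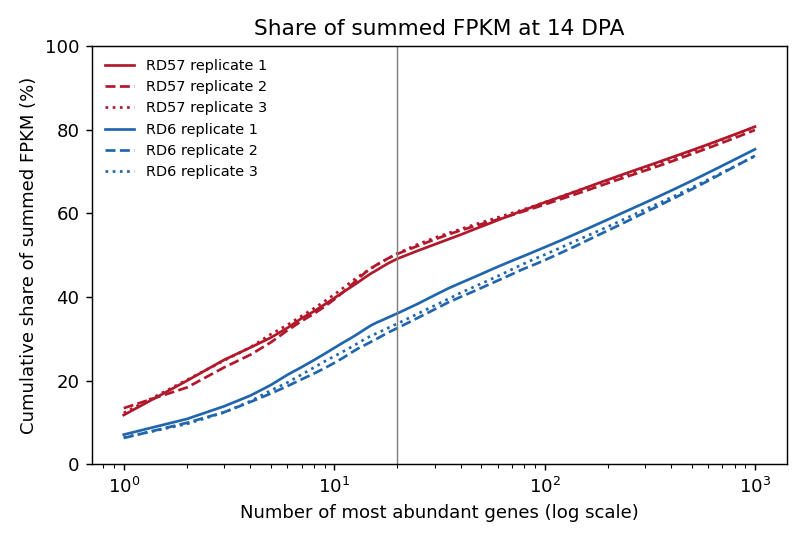
Cumulative share of summed FPKM against the number of most abundant genes (log axis), with each library ranked on its own. At the grey line (20 genes), the 3 RD57 libraries (red) reach 49.1% to 50.4% and the 3 RD6 libraries (blue) reach 32.6% to 36.0%.

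Summed FPKM itself was larger in RD57, at 1670225, 1731936 and 1748780, than in RD6, at 1327140, 1227155 and 1143783 (exact permutation p = 0.1). The 2 lists of 20 genes had 17 members in common and 23 in all. These 23 genes summed to 872000 ± 32100 FPKM in RD57 and 434600 ± 53100 in RD6, a ratio of 2.01. The other 26339 genes summed to 845000 ± 9380 and 798100 ± 43700 FPKM (SD, n = 3), a ratio of 1.06, and here too no RD6 library reached the lowest RD57 library. Thus 90.3% of the difference in summed FPKM lay in the 23 most abundant genes. Library medians over the shared genes were close but did not overlap, at 8.11 to 8.4 FPKM in RD57 and 7.86 to 8.07 in RD6.

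A large top-20 share in RD57 was not seen at each stage. It averaged 34.4% ± 8.27 in RD57 and 22.2% ± 3.41 in RD6 at 7 DPA (exact permutation p = 0.2), 24.6% ± 3.54 and 24.7% ± 3.59 at 21 DPA (exact p = 1), and 18.4% ± 2 and 15.3% ± 0.424 at 28 DPA (exact p = 0.1; SD, n = 3 throughout). In both cultivars the mean share was highest at 14 DPA.

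A few genes carried this difference. XLOC_000359, which ranked first in both cultivars, had 196517, 232239 and 214378 FPKM in RD57 and 94028, 77024 and 73371 in RD6. The RD57 values lay well above the RD6 values, and the gene made up 27.4% of the difference in summed FPKM. Its value in RD57 replicate 3 equals the mean of replicates 1 and 2, which is how the authors filled missing values, so RD57 may hold only 2 independent measurements of this gene. No label gives it a name.

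XLOC_000483, rank 2 in RD57 and rank 25 in RD6, had 137131, 82929.6 and 138738 FPKM in RD57 and 6589.9, 4869 and 5012 in RD6. It was the most abundant DEG, with a mean ratio of 21.8, a Log2FC of 4.42 ± 0.81 (SE) and an adjusted p of 0.000194 (limma, range over all alternatives 9.6e-06 to 0.524). It took 6.98% of summed FPKM in RD57 and 0.444% in RD6, and made up 23.6% of the difference between the sums. This gene was also higher in RD57 at 7 DPA (Log2FC 4.29, adjusted p 0.000278) and 21 DPA (2.37, adjusted p 0.033). At 28 DPA it did not pass (1.07, adjusted p 0.542), and its mean was 384.1 FPKM in RD57 and 492.3 in RD6.

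XLOC_027890, rank 3 in RD57, had 83238, 85812 and 80460 FPKM in RD57 and 32589, 24833 and 21626 in RD6. These groups did not overlap, with a mean ratio of 3.16 and a Log2FC of 1.68 ± 0.85 (SE, adjusted p 0.171, limma over all 24 libraries). XLOC_029538, rank 5 in RD57, had means of 47600 and 16450 FPKM (Log2FC 1.53 ± 0.76, adjusted p 0.159), again without overlap. With XLOC_000359 and XLOC_000483, these genes made up 69.2% of the difference in summed FPKM.

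The adjusted p of such abundant genes depended on how the error was estimated. The SE of their Log2FC comes from a spread shared by the 24 libraries, and over genes above 1000 FPKM it had a median of 0.455, against 0.234 below 1000 FPKM. Of the 23 genes, 17 had groups that did not overlap (29.4% of all shared genes did so), 13 higher in RD57 and 4 higher in RD6, yet only XLOC_000483 and XLOC_029536 passed the adjusted p threshold. Genes on only 1 of the top-20 lists, XLOC_000483 and XLOC_029536 among them, entered through the cultivar where they were higher. The comparison with 29.4% is therefore no test. When the 6 libraries of 14 DPA were fitted alone with 1 common prior variance and without genes at 0 in all 6, an alternative chosen after these values were seen, 10 of the 23 passed, 9 higher in RD57 and 1 higher in RD6. Among these were XLOC_000359 (adjusted p 0.000632, range over all alternatives 0.000632 to 1), XLOC_027890 (0.000601, range 0.000601 to 1) and XLOC_029538 (0.00108, range 0.00108 to 0.946). The same 6 libraries with a prior variance that follows mean level gave these 3 genes adjusted p values of 1, 1 and 0.946. Leaving out the 28 DPA libraries alone gave 0.637, 0.148 and 0.1.

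Not all abundant transcripts were clearly higher in RD57. XLOC_027889, next in number to XLOC_027890, had means of 39110 and 34070 FPKM (Log2FC 0.21 ± 0.88, adjusted p 1). XLOC_020356 and XLOC_021096 had means of 12630 and 13380 FPKM and of 11590 and 12160 FPKM, with overlapping groups. XLOC_023457, an RA16-like gene described below, was the gene of this set with the largest excess in RD6. The others higher in RD6 without overlap were XLOC_029544, XLOC_014547 (means of 4905 and 6651 FPKM in RD57 and RD6) and XLOC_027286 (5605 and 6423). None of these passed the adjusted p threshold in the fit over 24 libraries.

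**Figure D3:**
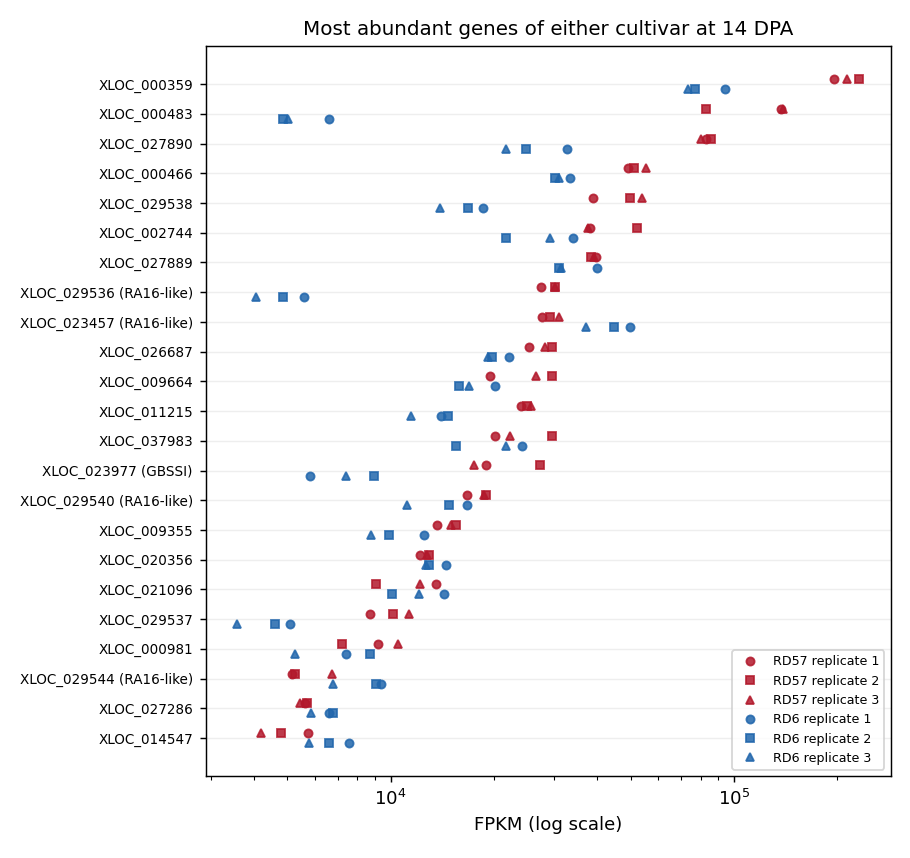
FPKM (log axis) of the 23 genes among the 20 most abundant of either cultivar at 14 DPA, 1 point per library (RD57 red, RD6 blue, marker shape by replicate), ordered by the RD57 mean. XLOC_000483 and XLOC_029536 show the widest separation, whereas XLOC_020356 and XLOC_021096 overlap.

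Of the labelled genes, GBSSI (XLOC_023977) had 18968, 27204 and 17504.5 FPKM in RD57 and 5819, 8928 and 7396 in RD6. No RD6 library reached the level of the lowest RD57 library. The means of 21230 ± 5230 and 7381 ± 1550 FPKM (SD, n = 3) gave a ratio of 2.88 and a Log2FC of 1.52 ± 0.77 (SE). The adjusted p was 0.168 in the fit over 24 libraries, 0.0207 without the 28 DPA libraries and 0.00358 with the 6 libraries of 14 DPA alone and 1 prior variance (range over all alternatives 0.00358 to 0.8). With the 6 libraries and a prior variance that follows mean level it was 0.63, so the call depends on how the error is estimated. GBSSI was also higher in RD57 at 7 DPA (Log2FC 2.61, adjusted p 0.0136), 21 DPA (3.49, adjusted p 0.00123) and 28 DPA (3.96, adjusted p 0.000782).

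AgpS2b (XLOC_033053), the small subunit of ADP-glucose pyrophosphorylase, had 2880, 3936 and 3104 FPKM in RD57 and 3093, 2576 and 2404 in RD6. These groups overlapped, and the Log2FC was 0.29 ± 0.63 (SE, adjusted p 0.881, limma). Both starch genes, which mark endosperm, were at 2404 FPKM or more in all 6 libraries.

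The RA16-like genes, members of the rice seed allergen family, did not move together. XLOC_029536 had 27478, 30082 and 30162 FPKM in RD57 and 5594, 4868 and 4058 in RD6, a mean ratio of 6.04. It was a DEG with a Log2FC of 2.61 ± 0.68 (SE, adjusted p 0.00554), although under quantile normalization, which forces equal distributions on all libraries, it had a Log2FC of 1.59 and an adjusted p of 0.0721 (range over all alternatives 7.44e-05 to 0.324). XLOC_023457, the most abundant RA16-like gene of RD6, had 27546, 29078 and 30939 FPKM in RD57 and 49855, 44681 and 37012 in RD6, higher in RD6 in all 3 libraries (Log2FC -0.58 ± 0.88, adjusted p 0.767).

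The other 3 RA16-like genes lay close together in number. XLOC_029540 had means of 18130 and 14200 FPKM in RD57 and RD6, XLOC_029544 had 5717 and 8409, and XLOC_029545 had 5777 and 5314. Their Log2FC values were 0.37, -0.55 and 0.11, with adjusted p values of 0.869, 0.695 and 1. The groups of XLOC_029540 and XLOC_029544 did not overlap, by a narrow margin, and those of XLOC_029545 did. Summed over the 5 genes, RD57 had 88060 ± 5880 and RD6 76620 ± 11900 FPKM (SD, n = 3, exact permutation p = 0.2). The sums overlapped, while single members differed in opposite directions. Reads that match several close copies may have been shared out among them, so the level of any single member is uncertain.

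The 2 unlabelled identifiers between XLOC_029536 and XLOC_029540 that are listed in the table, XLOC_029537 and XLOC_029538, belonged to the 23 most abundant genes. XLOC_029537 had 8719, 10154 and 11337 FPKM in RD57 and 5079, 4602 and 3558 in RD6 (Log2FC 1.2 ± 0.81, adjusted p 0.332). XLOC_029535, next in number to XLOC_029536, had means of 908.2 and 464.6 FPKM, again without overlap (Log2FC 0.96 ± 0.75, adjusted p 0.426). XLOC_029534 and XLOC_029542 had means of 16.4 and 15.9 FPKM and of 16.2 and 18.4 FPKM, with groups that overlapped.

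Of the remaining storage and nitrogen genes, CRA1-like (XLOC_009350), named for an Arabidopsis cruciferin, had 2645, 1904 and 2053 FPKM in RD57 and 3968, 3830 and 4162 in RD6. It was higher in RD6 in every library (Log2FC -0.87 ± 1.2, adjusted p 0.722; 0.0077 with the 6 libraries alone and 1 prior variance, range over all alternatives 0.0077 to 0.856). GLN1;1-like (XLOC_015723), a cytosolic glutamine synthetase that assimilates ammonium, had 432, 352.5 and 207.5 FPKM in RD57 and 816, 994 and 1075 in RD6. The groups were far apart, with a mean ratio of 2.91 in favour of RD6 (Log2FC -1.59 ± 0.7, adjusted p 0.103; 0.0152 with the 6 libraries alone and 0.00716 with these and 1 prior variance, range over all alternatives 0.00458 to 0.287). L-Asparaginase II (XLOC_018139), which releases ammonium from asparagine, had 166, 325 and 244 FPKM in RD57 and 267, 224 and 186 in RD6, with overlapping groups (adjusted p 1).

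The 3 RCAR3-like genes, of the abscisic acid receptor family, also differed among themselves. XLOC_026735 had 45.4, 41.9 and 23.6 FPKM in RD57 and 78, 98.1 and 89.5 in RD6, without overlap (Log2FC -1.3 ± 0.56, adjusted p 0.0969). The more abundant XLOC_026739 and XLOC_026741 had means of 938.2 and 760.5 FPKM and of 385.2 and 360.4 FPKM, with overlapping groups and Log2FC values of 0.29 and 0.08. None of the 3 was a DEG.

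Among labelled transcription factors, the seed-expressed NAC23 (XLOC_007020) was nearly equal at 2170 ± 358 and 2163 ± 421 FPKM (SD, n = 3). ANAC087 (XLOC_004710) had 888, 1581 and 1681 FPKM in RD57 and 1060, 905 and 769 in RD6, with overlapping groups. The FAR1 domain gene (XLOC_015291), of a family known from light signalling in Arabidopsis, was a DEG at 5.34, 2.1 and 3.96 FPKM in RD57 and 14, 16.7 and 17.5 in RD6 (Log2FC -2.02 ± 0.29, adjusted p 9.87e-06). Its Log2FC was -1.69 without RD57 replicate 2, -1.99 without RD6 replicate 2 and -1.95 without RD6 replicate 3, all short of the fold threshold.

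PCO/ADO (XLOC_015515), a cysteine dioxygenase of the kind that senses oxygen in plants, had means of 1154 and 693.2 FPKM without overlap (Log2FC 0.73 ± 0.85, adjusted p 0.645). ACHT4 (XLOC_014086), an atypical plastid thioredoxin in Arabidopsis, had means of 746.1 and 1465 FPKM, also without overlap (Log2FC -1.01 ± 0.89, adjusted p 0.492). Both passed when the 6 libraries were fitted alone with 1 prior variance, at adjusted p values of 0.0115 and 0.0235 (ranges over all alternatives 0.0115 to 0.788 and 0.0235 to 0.707).

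A further 4 labelled genes were DEGs. ATGSTF13 (XLOC_004640), a phi-class glutathione transferase, had 51.4, 55 and 42.9 FPKM in RD57 and 9.91, 3.45 and 7.76 in RD6 (Log2FC 2.84 ± 0.42, adjusted p 1.39e-05). DUF827 (XLOC_009979) had 18.4, 15.4 and 15.1 FPKM in RD57 and 1.59, 2.13 and 1.16 in RD6 (Log2FC 3 ± 0.23, adjusted p 9.07e-10). Both were higher in each RD57 library than in any RD6 library. On the other side, NOI (XLOC_019940) had 1.8, 10.6 and 5.23 FPKM in RD57 and 22.6, 21.7 and 22.2 in RD6 (Log2FC -2.1 ± 0.45, adjusted p 0.001, range over all alternatives 7.61e-05 to 0.0565), and its Log2FC was -1.51 without RD57 replicate 1. HBT9-like (XLOC_000812) had 2.41, 3.65 and 4.88 FPKM in RD57 and 315, 288 and 241 in RD6 (Log2FC -6.12 ± 0.22, adjusted p 7.01e-15), where the middle RD57 value equals the mean of the others.

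In all, 41 labelled genes were highest at 14 DPA in both cultivars and were kept. Of these, 6 (14.6%) were DEGs by both thresholds and 12 (29.3%) passed the adjusted p alone. All 41 were above 0 in all 6 libraries, where 1.27% and 18.7% of genes did so, beside 7.14% and 28.2% of all genes tested. The study picked such genes as DEGs on these same libraries, so the counts are no independent evidence.

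**Figure D4:**
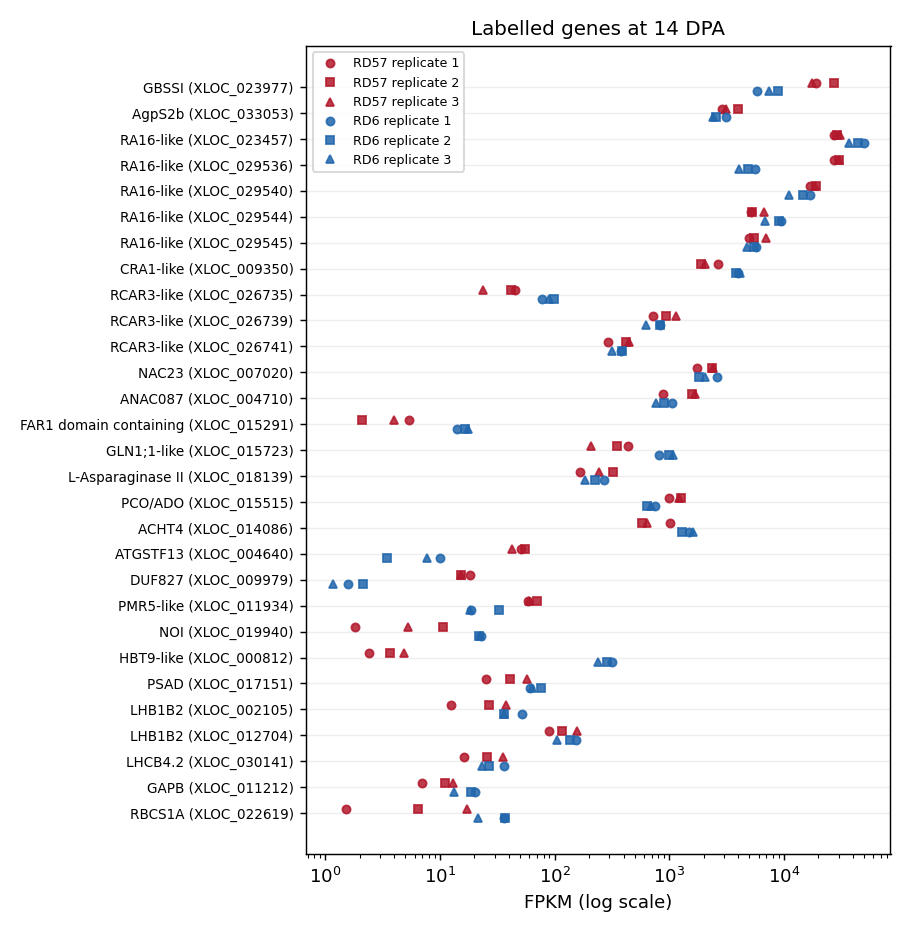
FPKM (log axis) of labelled genes at 14 DPA, 1 point per library (RD57 red, RD6 blue, marker shape by replicate). GBSSI, XLOC_029536, ATGSTF13 and DUF827 lie higher in RD57, and XLOC_026735, GLN1;1-like, FAR1, NOI and HBT9-like lie higher in RD6, while NAC23, AgpS2b and LHCB4.2 overlap.

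The genes labelled for photosynthesis belong to the green outer layers of the grain and were used as markers of them. There were 6 such genes, and their FPKM summed to 151, 227 and 316 in RD57 and to 358, 330 and 263 in RD6. The groups overlapped (means of 231 ± 82.3 and 317 ± 48.7, SD, n = 3, exact permutation p = 0.2), although RD57 replicate 1 was the lowest of the 6 libraries. All 6 genes had a lower mean in RD57, with a median Log2FC of -0.76 beside 0.03 over all shared genes. Only RBCS1A (XLOC_022619), the small subunit of Rubisco, was a DEG, with 1.5, 6.46 and 17 FPKM in RD57 and 36.5, 37.3 and 21.7 in RD6 (Log2FC -2.33 ± 0.64, adjusted p 0.00813). Without RD57 replicate 1 its Log2FC was -1.51 (adjusted p 0.0628), and with the 6 libraries of 14 DPA alone and 1 prior variance its adjusted p was 0.0705 (range over all alternatives 0.000658 to 0.117). The 5 others, PSAD, LHCB4.2, GAPB and both LHB1B2 genes, had Log2FC values of -0.78 to -0.15. In bulk grain, a smaller share of green tissue and less RNA per green cell cannot be told apart, and the part of either in the other differences was not tested.

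Of the 20 shared DEGs with the largest differences, 10 in each direction, 17 had a mean under 10 FPKM in the lower cultivar. The other 3 were XLOC_012700, XLOC_017812 and the abundant XLOC_000483. XLOC_012700 had the largest Log2FC, with 1771, 1068 and 2459 FPKM in RD57 and 11.4, 6.72 and 13.7 in RD6 (Log2FC 7.29 ± 0.36, adjusted p 1.25e-12). At the other end, XLOC_042919 had 3.07, 2.07 and 1.07 FPKM in RD57 and 370, 401 and 581 in RD6 (Log2FC -7.51 ± 0.3, adjusted p 3.71e-14). Neither pair of groups came near each other, but the middle value of XLOC_042919 in RD57 equals the mean of the other 2.

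The 10 largest upward differences ran from 4.18 to 7.29 and the 10 largest downward from -7.51 to -5.32. Besides XLOC_012700 and XLOC_000483, the upward set held XLOC_000120, XLOC_000087, XLOC_003429, XLOC_043360, XLOC_009653, XLOC_024545, XLOC_017812 and XLOC_039889. XLOC_017812 was even across replicates, with 363, 413 and 393 FPKM in RD57 and 19.4, 21.6 and 19.9 in RD6 (Log2FC 4.23 ± 0.18, adjusted p 6.89e-14). XLOC_000120 was less even, with 313, 90.7 and 90.3 FPKM in RD57 and 0.7, 0.788 and 0.744 in RD6, where the last value equals the mean of the others. The downward set held XLOC_042919, HBT9-like, XLOC_004650, XLOC_001864, XLOC_033945, XLOC_029253, XLOC_016229, XLOC_023635, XLOC_012482 and XLOC_021323. Among these, XLOC_001864 had 0.95, 0.982 and 1.02 FPKM in RD57 and 87.4, 88.5 and 98.1 in RD6 (Log2FC -5.95 ± 0.12, adjusted p 1.08e-18). Its middle RD57 value equals the mean of the others, so its SE may be too small.

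A filled value stood on the low side in 3 of the 10 upward and 8 of the 10 downward genes, against 75 of the 247 shared DEGs and 1915 of the 19402 shared genes that held a filled value anywhere. Filling makes replicates look closer than they were. All 20 genes passed the adjusted p threshold with the 6 libraries of 14 DPA alone and 1 prior variance.

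Genes listed at 0 in 1 cultivar were mostly of low abundance in the other. The RD57-only genes had a median of 1.4 FPKM in RD57, and 11 of 1969 reached 100 FPKM. The RD6-only genes had a median of 1.27 FPKM in RD6, and 3 of 1827 reached 100 FPKM. DEGs made up 866 of the first set and 768 of the second, and the lowest cultivar means among these DEGs were 1.52 and 1.51 FPKM. No fold change is given against a value listed at 0, since reads below 0.5 FPKM had been set aside by the authors.

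The most abundant RD57-only gene was XLOC_040314, with 2127, 12102 and 4248 FPKM in RD57 and 0 in each RD6 library. At 7 DPA this gene had a mean of 1760 FPKM in RD6 and 5353 in RD57. It was thus detected in RD6, and the listed 0 at 14 DPA is no evidence that RD6 lacks the gene. XLOC_007887 had 266, 268 and 335 FPKM in RD57 and was listed at 0 in RD6 at all 4 stages, with RD57 means of 274.3, 397.8 and 361.8 at 7, 21 and 28 DPA. XLOC_000185 had 168, 97.8 and 353 FPKM and XLOC_023111 had 172, 221 and 332 FPKM in RD57, and both were likewise at 0 in RD6 at every stage. XLOC_020150 had 615, 663 and 711 FPKM, the middle one a filled value, and was listed at 0 in both cultivars at the other 3 stages.

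The most abundant RD6-only gene was XLOC_024294, with 280, 246 and 254 FPKM in RD6. XLOC_019090 had 126, 108 and 100 FPKM, XLOC_000816 had 73.5, 74.1 and 92.4, and XLOC_012856 had 244, 38.6 and 93. These 4 genes were above 0 in RD6 at 7 and 21 DPA and listed at 0 in RD57 at all 4 stages. XLOC_000221 had 91, 1.21 and 181 FPKM, of which the first equals the mean of the others, and it was at 0 at the other stages in both cultivars.

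Most of the shared DEGs of 14 DPA also differed at a neighbouring stage. At 7 DPA, 134 of the 247 (54.3%) were DEGs in the same direction and 7 in the opposite direction, where 7.24% of all genes were DEGs. At 21 DPA, 109 (44.1%) were DEGs in the same direction and 4 in the opposite direction, where 6.9% of all genes were. At 28 DPA the numbers were 61 and 0, where 3.07% of all genes were DEGs, and 104 of the 247 were listed at 0 in both cultivars. The median Log2FC of the 132 upregulated genes was 2.08, 2.5, 1.13 and 1.16 at the stages in order. That of the 115 downregulated genes was -2.35, -2.6, -2.45 and 0, and the value at 14 DPA is the one by which the genes were selected. The medians include genes listed at 0 in 1 or both cultivars. Only 179, 165 and 117 of the 247 were above 0 in all 6 libraries at 7, 21 and 28 DPA. At 28 DPA, 0 of the 768 RD6-only DEGs of 14 DPA were still RD6-only, against 393 of the 866 RD57-only DEGs. Whether the 28 DPA values could show an RD6-only gene was not tested, so the median of 0 need not mean equal expression.

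**Figure D5:**
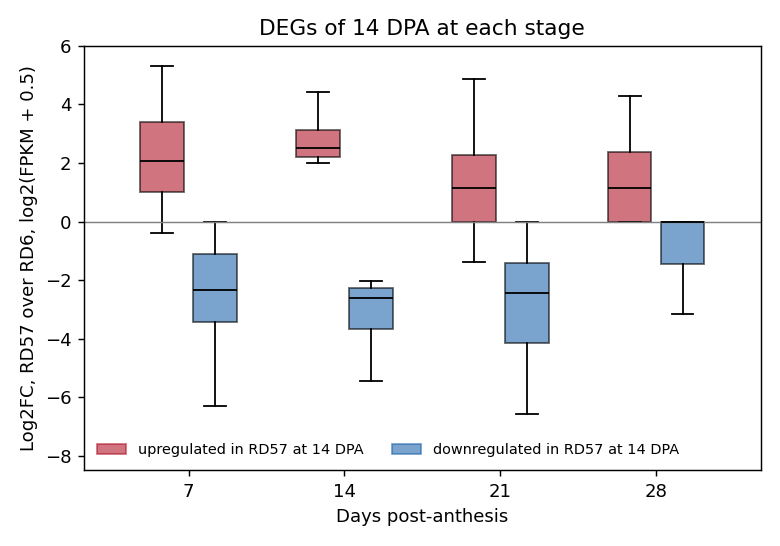
Log2FC (RD57 over RD6) at each DPA of the 132 shared genes upregulated (red) and the 115 downregulated (blue) in RD57 at 14 DPA. Boxes show the quartiles and median, and whiskers the 5th and 95th percentiles over genes. Medians at 7 DPA are 2.08 and -2.35, and at 28 DPA 1.16 and 0. Genes listed at 0 in 1 or both cultivars at a stage are included.

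All 20 genes with the largest differences were DEGs in the same direction at 7 DPA, and 19 of them were at 21 DPA. Most were listed at 0 in the lower cultivar at 7 DPA, XLOC_012700 and XLOC_042919 among them. Those calls rest in part on the value added before taking logs. At 28 DPA 8 of the 20 were, and 9 of the 10 downward genes were listed at 0 in both cultivars there. Since none of the RD6-only DEGs of 14 DPA stayed RD6-only at 28 DPA, the 2 directions cannot be compared at that stage.

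The difference between cultivars was itself compared between stages. Against 7 DPA, 84 of the 247 genes had a different Log2FC at 14 DPA (adjusted p of the difference of contrasts, limma). Of these, 63 had moved in the direction of the 14 DPA call and 21 the other way, where 11.4% of the shared genes and 22.4% of all genes passed this test. Against 21 DPA the numbers were 119, 95 and 24, where 18.2% of the shared genes and 28.4% of all genes passed. In 35 genes, 25 upregulated and 10 downregulated in RD57, the difference was moved in the direction of the 14 DPA call against both stages. Since the genes were selected by their 14 DPA difference, an excess of moves in the direction of the call is part of that selection. Such moves include reversals from a larger opposite difference. XLOC_016414, for example, had a Log2FC of -7.24 at 7 DPA and 2.71 at 14 DPA.

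DUF827 was the clearest labelled case, with Log2FC values of 0.05, 3 and 0.61 at 7, 14 and 21 DPA. NOI had -0.06, -2.1 and -0.17. Of the unlabelled genes, XLOC_024952 had 21.7, 15.4 and 27.6 FPKM in RD57 and 89.4, 141 and 100.5 in RD6 at 14 DPA, and its Log2FC was -0.3, -2.34 and -0.36 at the 3 stages. XLOC_042396 had 8.84, 10.4 and 7.53 FPKM in RD57 and 1.31, 0.738 and 1.88 in RD6, with Log2FC values of 0, 2.42 and -0.2. These latter 2 genes were chosen after their values were seen. The first RD6 value of XLOC_042396 equals the mean of the others. A Log2FC of 0 can also stand for a gene listed at 0 in both cultivars.

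The 7 shared DEGs that were DEGs in the opposite direction at 7 DPA, 6 of them upregulated in RD57 at 14 DPA, were mostly uneven across replicates. In 5 of the 7, RD57 replicate 2 was the highest and RD57 replicate 1 the lowest of the RD57 libraries. XLOC_014449 had 36.3, 695 and 204 FPKM in RD57 and 23, 16 and 11.6 in RD6 at 14 DPA (Log2FC 3.37, adjusted p 0.0019), but a Log2FC of -4.42 at 7 DPA (adjusted p 0.000119). XLOC_016414 had 2.73, 46.4 and 9.84 FPKM in RD57 and 1.9, 0.708 and 1.41 in RD6 (Log2FC 2.71, adjusted p 0.0273), but -7.24 at 7 DPA. Without RD57 replicate 2, 5 of the 7 genes were no longer DEGs at 14 DPA, XLOC_016414 among them (Log2FC 1.71, adjusted p 0.202), while XLOC_014449 remained one (2.37, adjusted p 0.0185). XLOC_019682, the downregulated gene, was lost only by the fold threshold, since its Log2FC moved from -2.02 to -1.93 (adjusted p 0.000833).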

How the data were processed

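RNA-seq libraries were made with a stranded mRNA kit from grain RNA, labelled endosperm, and sequenced at a service centre. The authors filtered reads with Fastp, Trimmomatic and SortMeRNA, aligned them with HISAT2 to the indica genome ASM465v1, and obtained FPKM with Cufflinks, Cuffmerge, Cuffquant and Cuffnorm. Transcripts were merged to genes, anything under 0.5 FPKM was discarded, detection in at least 2 replicates was required, and gaps were filled with the replicate mean. The deposited FPKM include these steps; tool versions are not given in the sources used here. The depth behind a single value is unknown, and 0 data columns were left without a sample. For whole libraries the study does list mapped reads. At the stage compared here, the aligned and multimapped shares were higher in every RD57 library than in any RD6 library. The largest counts of uniquely mapped pairs were also in RD57 libraries, although the groups overlapped. The part of these differences in genes listed at 0 or in abundant genes with close copies was not tested.

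Values were transformed to log2(FPKM + 0.5) and fitted in R 4.3.3 with limma 3.58.1 as 8 group means over all 24 libraries, with a prior variance that follows mean level. RD57 was contrasted with RD6 at each DPA, and this contrast was compared between 14 DPA and 7 or 21 DPA, with p-values adjusted by Benjamini-Hochberg over 26362 genes. The fit was tested on simulated data. The edgeR model of the study needs counts and was not used. Single values of 3 against 3 libraries were compared by exact two-sided permutation. A value was called filled where it equals the mean of the other 2 replicates within a relative tolerance of 1e-06. SD and n refer to the biological replicates named in the study.

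Alternatives were pseudocounts of 0.1 and 1, a minimum of 1 FPKM, only genes above 0 in all 6 libraries, only the 6 libraries of 14 DPA, quantile normalization, rescaling without the 100 most abundant genes, genes with filled values left out, a fold threshold of 1 on the log2 scale, a replicate block, other rankings of the top 20 genes and leaving out each library. Another 2 were chosen after seeing the data, namely a fit without the 28 DPA libraries and a fit of the 6 libraries with 1 prior variance and without genes at 0 in all 6.

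Named genes were the 10 largest differences in each direction among shared DEGs with separate groups, the 5 most abundant genes listed at 0 in the other cultivar, the 20 most abundant genes of each cultivar, the 5 largest differences in each direction above 100 FPKM, and the labelled genes. The members and lists were chosen with earlier results of these data known. Of 52 labels read, 47 were kept because the gene was highest in both cultivars at the stage of its heat map (41 of 46 at 14 DPA, 6 of 6 at 7 DPA). For RCAR3-like and the EF-hand gene an unclear digit was settled by that pattern. None of the identifiers matched the gene table at hand, so no sequence is shown.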

Additional observations from a re-analysis of the deposited data

Results flagged for a closer look

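The contrast of RD57 over RD6 was compared between 14 DPA and a neighbouring stage for each named gene above 0 in all 12 libraries concerned. Each value below is the Log2FC at 14 DPA minus that at the other stage, with the adjusted p of limma over 26362 genes. Groups of 3 libraries are too small for a test of single outlying samples. The named genes were chosen in part by their 14 DPA difference or by the study on these libraries. Their shares below are therefore no independent evidence.

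Against 7 DPA, 4 of 68 named genes (5.88%) differed, where 7.96% of all 17819 genes above 0 in these 12 libraries did. DUF827 differed by 2.95 (adjusted p 3.32e-07), with a Log2FC of 0.05 at 7 DPA. NOI differed by -2.04 (0.0247). AGC1.7, a protein kinase, differed by -2.18 (0.00858), with Log2FC values of 1.11 at 7 DPA and -1.07 at 14 DPA, and RCAR3-like XLOC_026735 differed by -2.43 (0.0309), with 1.13 and -1.3. In the last 2 genes neither single contrast passed the threshold.

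Against 21 DPA, 17 of 69 named genes (24.6%) passed, where 13.6% of all 17186 such genes did. The photosynthesis genes LHB1B2 (XLOC_002105), GAPB and LHCB4.2 differed by 2.39 (adjusted p 0.0324), 1.94 (0.00105) and 2.18 (0.00437), each lower in RD57 at 21 DPA, with Log2FC values there of -3.17, -2.68 and -2.37. FA_desaturase_2, a fatty acid desaturase, differed by 4.31 (0.000539), from -2.87 at 21 DPA to 1.43 at 14 DPA. LEA_2, of the late embryogenesis abundant proteins, differed by 3.05 (0.00297). PDCB3, a plasmodesmal callose-binding protein in Arabidopsis, differed by 2.45 (0.0373), PERK1-13-like by 2.26 (0.0243) and eIF-1a by 2.1 (0.0275). Galactosyl_T differed by 1.8 (0.00879) and the copine domain gene by 1.56 (0.029). In all 7 of these genes, FA_desaturase_2 to the copine domain gene, RD6 was the higher cultivar at 21 DPA.

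ATGSTF13 differed by 2.14 (0.00908) and DUF827 by 2.39 (5.45e-06), with the larger excess of RD57 at 14 DPA. NOI differed by -1.93 (0.0287) and the FAR1 domain gene by -1.14 (0.0425), with the larger excess of RD6 at 14 DPA. The unlabelled XLOC_012700, XLOC_039889 and XLOC_043360 differed by 1.52 (0.0315), 1.92 (0.0273) and 2.24 (0.0143), each higher in RD57 at both stages.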

How the results depend on the processing

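The number of DEGs kept within 1.5 times of 1881 under most alternatives and moved under 4 of them: 4143 with a pseudocount of 0.1, 1024 with a pseudocount of 1, 246 with only genes above 0 in all 6 libraries, and 5203 with the fold threshold lowered to 1. For DEGs listed at 0 in 1 cultivar the numbers were 3796, 840 and, with the fold threshold of 1, 3790. The 247 DEGs above 0 in all 6 libraries moved only with that threshold, to 1413, and were 172 to 347 otherwise. Leaving out 1 library gave 1875 to 1958, 236 to 307 and 1622 to 1651 DEGs for all, shared and other genes, and a difference in the top-20 share of 15.1 to 16.8 percentage points. Replicate numbers did not pair the libraries: correlations of same-numbered deviations were -0.275, -0.016 and -0.257. No library correlated best with the other cultivar's library of its own number. With the replicate block there were 1874, 240 and 1634 DEGs, and no named gene crossed the adjusted p threshold.

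Of 83 named genes, 18 passed the adjusted p threshold under some alternative only, 9 no longer passed under some alternative, and none that passed the adjusted p threshold changed direction. Among those that did not pass, quantile normalization changed the sign of XLOC_000981 (-0.09), XLOC_002744 (-0.12), XLOC_005634 (-0.05), XLOC_007020 (-0.03), XLOC_009355 (-0.12), XLOC_009664 (-0.2), XLOC_026687 (-0.21), XLOC_027889 (-0.47), XLOC_029540 (-0.25), XLOC_029545 (-0.01) and XLOC_037983 (-0.36), and set XLOC_000359, first in rank in all 6 libraries, to 0. Rescaling gave -0.06 for XLOC_005634 and -0.07 for XLOC_007020. Leaving out 1 library gave ranges across 0 for XLOC_005634 (-0.46 to 0.48), XLOC_007020 (-0.11 to 0.16), XLOC_012704 (-0.35 to 0.05), XLOC_018139 (-0.15 to 0.33), XLOC_021096 (-0.2 to 0.09), XLOC_026741 (-0.03 to 0.27), XLOC_029545 (-0.04 to 0.22) and XLOC_030141 (-0.46 to 0.1). The median Log2FC of shared genes was 0.03, and -0.04 under both quantile normalization and rescaling. In the fit of the 6 libraries with a trended prior, XLOC_000483 and XLOC_029536 had adjusted p values of 0.524 and 0.324; there the 33 genes with a mean log2 level above 12 had a median prior variance of 13, against 0.0499 observed.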

Other observations

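DEGs and abundant transcripts were unevenly spread over the identifier numbers. Of the 542 listed genes numbered up to XLOC_000599, 130 (24%) were DEGs at 14 DPA, 59 upregulated and 71 downregulated in RD57, against 6.78% of the other 25820 genes. Among genes above 0 in all 6 libraries the shares were 5.41% and 1.22%. These identifiers took 23.0% ± 1.25 of summed FPKM in RD57 and 10.2% ± 0.419 in RD6 (SD, n = 3), and held 3 of the 4 most abundant RD57 genes. The block was chosen after its values were seen, and what sequence the numbers stand for is not given in the sources used here.

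DEGs also lay next to DEGs of the same direction. An upregulated gene had an upregulated neighbour, 1 number away, in 12.7% of cases, against 4.68% of all genes, and a downregulated gene had a downregulated neighbour in 11.1%, against 4.19%. Whether neighbouring numbers are neighbouring genes was not tested.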
